A study of Mus musculus with 6 samples.

Results

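The genes described here drive cells through the division cycle: cyclins and their kinases, the machinery that copies DNA, the machinery of mitosis and the inhibitors of cyclin-dependent kinases. They are a list of 46 symbols, all of which were found among the 54532 genes of the table, and 45 of them passed the filter on low values; Ccnd1 did not. By role, 5 are cyclins and kinases of G1, 17 act in S phase and DNA replication, 20 in G2 and mitosis, and 4 are CDK inhibitors. RNA was sequenced from bone marrow cells of mouse tibias selected for CD11b, an integrin chain of myeloid cells. All animals were 12 weeks old, and the comparison asks what differs between mice with and without the receptor of thyroid-stimulating hormone. One group is labelled Tshr+/+ (wild type, 3 libraries) and the other Tshr-/- (3 libraries), a genotype that another label calls Tshr knockdown. No source used here gives the allele, how Tshr was disrupted or whether animals were pooled. Every sample also carries a label for a treatment, osteoclast differentiation, with no time, so the groups share whatever it denotes.

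The libraries ranged in depth from 14698126 to 17976477 fragments, with 20762 to 21358 genes above 0. The libraries labelled Tshr-/- held 40, 25 and 1 fragments of Tshr itself, against 55, 55 and 45 in those labelled Tshr+/+. Tshr was thus still read in 2 of the 3 libraries labelled Tshr-/-, and which part of the gene the mutation removes is not stated, so every direction below is that of the labels. Itgam, which encodes CD11b, stood between 87.4 and 133.6 FPKM (fragments scaled to gene length and library size) in the 6 libraries. Late neutrophil genes were the most abundant markers: the granule protein gene Ngp averaged 20857 FPKM and the calprotectin gene S100a9 averaged 46104 FPKM. Elane, the elastase gene of dividing neutrophil precursors, averaged 1073 FPKM.

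In background, D-type cyclins with Cdk4 and Cdk6 and then E-type cyclins with Cdk2 release E2F factors, which switch on the genes that license origins, unwind DNA and make nucleotides. Later in the cycle the MuvB complex with B-Myb and Foxm1 switches on the genes of mitosis, often through a CHR element beside CCAAT boxes. In bone marrow the myeloid cells that divide are the early precursors, while mature neutrophils have left the cycle. RNA of S phase and mitosis genes in a bulk sample is thus expected mainly from a minority of cells. A lower value of these genes in such bulk RNA can come from fewer dividing cells or from less RNA per dividing cell. These cannot be told apart here. Which cells hold the RNA of the CDK inhibitors and G1 members is not shown by bulk RNA.

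The start regions of S phase and mitosis members carried different letters, and the examples below show both kinds. RefSeq promoter windows (GRCm38.p6, 250 bases before to 50 bases after a start) were found for 36 of the 46 members, in 40 windows. E2F-type letters were searched on both strands as TTTCCCGC, TTTGGCGC, TTTCGCGC and TTTGCCGC, CHR-type letters as TTTGAA and in the alternative forms TTCGAA and, with a single other base, TTTAAA, and the CCAAT box by the letters of its name. None of these contains another, but matches may share bases. E2F-type letters stood in 7 of 15 S phase windows and in 1 of 15 mitosis windows, that of Cdk1, against 2.26% of the 32851 windows of the table. CHR-type letters stood in 15 of 15 mitosis windows and 5 of 15 S phase windows, against 28.8% of all windows. A CCAAT box stood in 14 of 15 mitosis and 10 of 15 S phase windows, against 37.4% of all. CHR-type letters and a CCAAT box occurred together in 14 of 15 mitosis windows and in 11.3% of all windows. None of the 4 windows of G1 members and none of the 6 windows of CDK inhibitors held E2F-type letters. These are matches of letters in a fixed window, not binding sites.

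The 3 most abundant S phase members with an E2F-type match before the start are the helicase subunit genes Mcm5, Mcm7 and Mcm6, and the 3 most abundant mitosis members with a CHR-type match there are Ccnb2, Mki67 and Cdc20. Each line gives the 250 bases before the start, 5′ to 3′ on the gene's strand, with E2F-type matches in capitals in the Mcm genes and CHR-type matches, all TTTGAA, in capitals in the mitosis genes. In Mcm5 the matches on the 2 strands share bases, and in Mcm6 a pair of them does.
Mcm5, chr8:75109259-75109508, plus strand: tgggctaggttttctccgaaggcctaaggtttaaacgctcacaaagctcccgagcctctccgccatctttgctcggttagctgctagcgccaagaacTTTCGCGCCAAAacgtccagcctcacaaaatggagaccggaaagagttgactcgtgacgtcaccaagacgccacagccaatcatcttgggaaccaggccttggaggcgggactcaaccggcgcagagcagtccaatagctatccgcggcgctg
Mcm7, chr5:138171884-138172133, minus strand: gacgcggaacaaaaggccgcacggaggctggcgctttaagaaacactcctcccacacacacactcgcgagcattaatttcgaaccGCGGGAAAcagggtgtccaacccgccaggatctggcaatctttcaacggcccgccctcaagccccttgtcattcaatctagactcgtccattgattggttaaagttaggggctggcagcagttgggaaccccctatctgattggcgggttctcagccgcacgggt
Mcm6, chr1:128359706-128359955, minus strand: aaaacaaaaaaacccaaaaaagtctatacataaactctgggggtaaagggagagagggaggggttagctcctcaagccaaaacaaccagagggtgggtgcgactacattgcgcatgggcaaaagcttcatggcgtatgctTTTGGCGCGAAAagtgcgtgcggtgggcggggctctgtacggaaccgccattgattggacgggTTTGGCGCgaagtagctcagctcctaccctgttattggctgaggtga
Ccnb2, chr9:70421555-70421804, minus strand: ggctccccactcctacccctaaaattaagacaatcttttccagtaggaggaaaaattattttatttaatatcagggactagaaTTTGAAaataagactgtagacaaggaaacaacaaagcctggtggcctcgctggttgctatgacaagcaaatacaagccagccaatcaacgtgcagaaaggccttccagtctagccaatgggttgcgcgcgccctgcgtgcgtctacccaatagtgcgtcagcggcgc
Mki67, chr7:135716380-135716629, minus strand: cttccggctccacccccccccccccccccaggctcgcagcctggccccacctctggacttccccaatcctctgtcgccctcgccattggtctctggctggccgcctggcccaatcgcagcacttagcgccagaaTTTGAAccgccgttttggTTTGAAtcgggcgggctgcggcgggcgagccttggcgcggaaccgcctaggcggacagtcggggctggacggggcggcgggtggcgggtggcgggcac
Cdc20, chr4:118437344-118437593, minus strand: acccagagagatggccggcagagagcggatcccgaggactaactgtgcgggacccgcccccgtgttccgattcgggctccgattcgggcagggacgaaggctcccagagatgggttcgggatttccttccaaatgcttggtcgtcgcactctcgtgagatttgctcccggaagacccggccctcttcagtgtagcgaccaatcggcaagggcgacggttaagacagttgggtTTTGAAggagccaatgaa
The first E2F-type match began 153 bases before the start in Mcm5, 165 in Mcm7 and 110 in Mcm6. The TTTGAA match began 167 bases before the start in Ccnb2, 116 and 98 in Mki67 and 18 in Cdc20.

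None of the 45 tested members differed between the groups past the threshold (limma on log2(FPKM + 1), Benjamini-Hochberg over 10913 genes, adjusted p under 0.05), and 0% of all tested genes did. Every member had an adjusted p of 0.9997 with limma. At an unadjusted limma p under 0.05 stood 0 of 45 members, against 2.9% of all genes tested. This count was 8 of 45 without Tshr+/+ 3 (13.8% of all genes), 8 without number 3 of both groups (14.3%) and 11 with array weights (23.4%), with 0 members called in each. No member had groups without overlap, 0 of 46, against 6.77% of all genes tested. Log2 fold changes (Tshr-/- minus Tshr+/+) ran from -0.48 to 0.24, and their 95% intervals from -1.40 for Cdkn1a to 0.88 for Ccnb1. Only the interval of Cdkn1a reached past a 2-fold difference in either direction. The signs differed by role: 4 of 4 tested G1 members, 5 of 17 S phase members, 17 of 20 mitosis members and 0 of 4 inhibitors had a log2 fold change above 0, against 47.1% of all genes tested. The median was 0.11 for G1, -0.08 for S phase, 0.10 for mitosis and -0.11 for the inhibitors, beside -0.01 for all genes. With FPKM rescaled to equal totals, 7 S phase and 19 mitosis members were above 0. Members of a role were read in the same libraries, so their signs are not independent. With single libraries left out, the S phase count ran from 3 (without Tshr+/+ 3, for example) to 8 (without Tshr-/- 2). The mitosis count then ran from 12 (without Tshr+/+ 1, for example) to 20 (without Tshr-/- 2). Taken by pairs of the same number, Tshr-/- was above Tshr+/+ in all 3 pairs in 5 of 46 members (Gins2, Aurka, Kif20a, Cenpe and Cenpf), against 12.2% of all genes tested, and below in all 3 pairs in 3 of 46 (Ccne1, Rrm2 and Cdkn2d), against 14.5%.

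**Figure D1:**
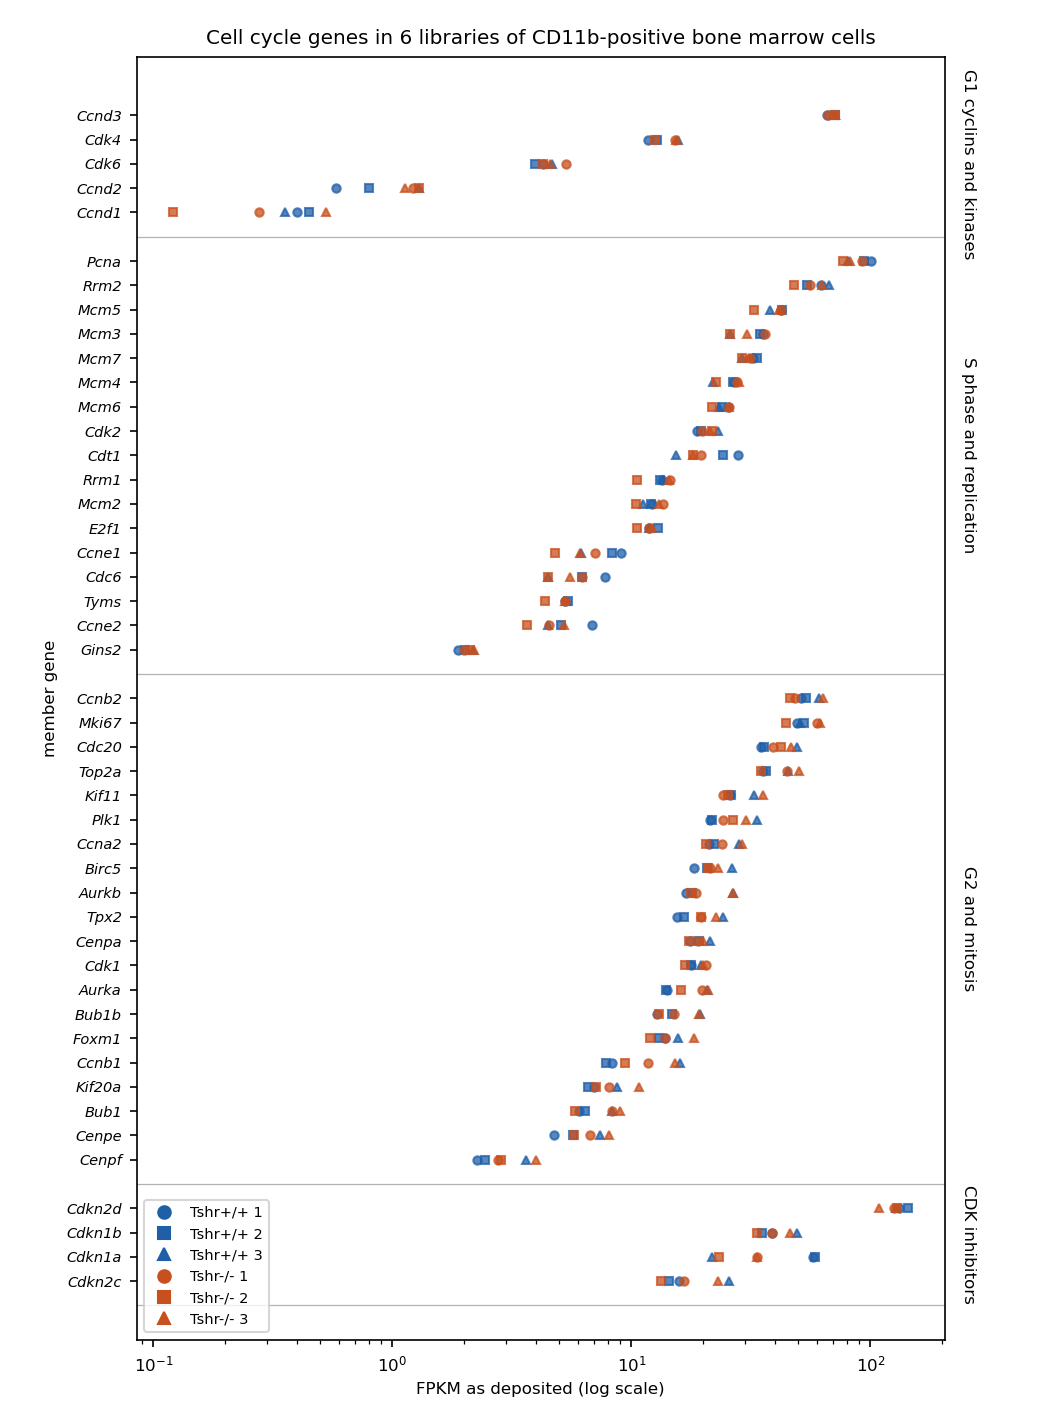
FPKM as deposited (log axis) of the 46 members in each library, ordered by role and mean; blue marks are Tshr+/+ and orange marks Tshr-/- libraries, with circles, squares and triangles for numbers 1, 2 and 3. Blue and orange overlap in every row, and the triangles lie to the right in most rows of G2 and mitosis.

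The G1 genes were led by Ccnd3, and the other D-type cyclins were scarce. D-type cyclins pass growth factor signals to the cycle by activating Cdk4 and Cdk6. Ccnd3 stood at 66.0, 71.2 and 70.8 FPKM in Tshr+/+ and at 66.7, 71.1 and 70.8 FPKM in Tshr-/-. These 6 values lie within a 1.08-fold range, the narrowest of all members. Ccnd2 stood at 0.580, 0.796 and 1.30 FPKM in Tshr+/+ and at 1.22, 1.30 and 1.13 FPKM in Tshr-/-. The libraries labelled Tshr+/+ 1 and 2 were below all others, while Tshr+/+ 3 was the highest of all 6 (log2 fold change 0.24 ± 0.17, SE; limma adjusted p = 0.9997). Leaving out Tshr+/+ 1 gave 0.12 and leaving out Tshr+/+ 3 gave 0.39. Ccnd1 stood at 0.399, 0.449 and 0.356 FPKM in Tshr+/+ and at 0.277, 0.121 and 0.527 FPKM in Tshr-/-, from 8 to 50 fragments. Its highest and lowest values both came from Tshr-/- libraries, and the exact 95% Poisson interval, which covers counting error only, was 0.0523 to 0.239 FPKM for Tshr-/- 2 and 0.391 to 0.695 for Tshr-/- 3. The gene Oraov1, which overlaps Ccnd1, had 923% of its fragments, and no source used here says whether counting used strand, so the origin of the Ccnd1 fragments is uncertain. Cdk4, the kinase partner, stood at 11.7, 12.8 and 15.7 FPKM in Tshr+/+ and at 15.3, 12.6 and 15.3 FPKM in Tshr-/-. Cdk6, its paralog, stood at 4.27, 3.97 and 4.67 FPKM in Tshr+/+ and at 5.35, 4.28 and 4.59 FPKM in Tshr-/-, with the highest value in Tshr-/- 1 and groups that overlap (log2 fold change 0.11 ± 0.12, SE; limma adjusted p = 0.9997; 0.037 without Tshr-/- 1).

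Entry into S phase was read most from Cdk2 and E2f1 and less from the E-type cyclins. E2f1, the activator of replication genes, stood at 11.8, 12.98 and 11.8 FPKM in Tshr+/+ and at 11.8, 10.5 and 12.1 FPKM in Tshr-/-. Cdk2 stood at 18.8, 19.6 and 23.1 FPKM in Tshr+/+ and at 19.7, 21.7 and 21.4 FPKM in Tshr-/-. Both genes overlapped between the groups. Ccne1, which activates Cdk2 at the start of S phase, stood at 9.08, 8.32 and 6.15 FPKM in Tshr+/+ and at 7.03, 4.77 and 6.11 FPKM in Tshr-/-. The values of Tshr+/+ 1 and 2 were above all others, Tshr+/+ 3 lay among the Tshr-/- libraries, and Tshr-/- 2 was lowest. The group means were 7.85 ± 1.52 and 5.97 ± 1.14 FPKM (SD, n = 3). Its limma p was the smallest of any member, at 0.0999 unadjusted and 0.9997 adjusted (log2 fold change -0.34 ± 0.18, SE; -0.21 without Tshr-/- 2). Ccne2, its paralog, stood at 6.83, 5.06 and 4.49 FPKM in Tshr+/+ and at 4.54, 3.65 and 5.24 FPKM in Tshr-/- (log2 fold change -0.23 ± 0.18, SE; limma adjusted p = 0.9997; -0.085 without Tshr+/+ 1 and -0.12 without Tshr-/- 2). The groups overlapped, again with Tshr+/+ 1 highest and Tshr-/- 2 lowest, and the overlapping gene Ints8 had 129% of the fragments of Ccne2.

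The 8 members that license origins of replication were all lowest in Tshr+/+ 3 within the Tshr+/+ group. Cdt1 and Cdc6 load the helicase made of Mcm2 to Mcm7 onto DNA. Cdt1 stood at 27.9, 24.3 and 15.4 FPKM in Tshr+/+ and at 19.6, 18.1 and 18.1 FPKM in Tshr-/-. The Tshr-/- values thus lay close together, between Tshr+/+ 3 below and Tshr+/+ 1 and 2 above (22.5 ± 6.43 against 18.6 ± 0.852 FPKM, SD, n = 3; log2 fold change -0.23 ± 0.21, SE; limma adjusted p = 0.9997). Without Tshr+/+ 3 the log2 fold change of Cdt1 was -0.47, with a limma adjusted p of 0.214, and without Tshr+/+ 1 it was -0.057. Cdc6 stood at 7.73, 6.22 and 4.48 FPKM in Tshr+/+ and at 6.21, 4.49 and 5.54 FPKM in Tshr-/-. Mcm5, the most abundant subunit, stood at 42.2, 42.5 and 38.1 FPKM in Tshr+/+ and at 42.2, 32.7 and 41.6 FPKM in Tshr-/-. Here one library of each group was low, Tshr+/+ 3 and, further down, Tshr-/- 2. Mcm3 stood at 35.4, 34.4 and 25.9 FPKM in Tshr+/+ and at 36.2, 26.0 and 30.3 FPKM in Tshr-/-, and Mcm4 at 26.9, 26.7 and 22.1 and at 27.6, 22.6 and 28.2 FPKM. These had the same pair of low libraries as Mcm5. Mcm2 stood between 10.5 and 13.6 FPKM, Mcm6 between 21.8 and 25.7 FPKM and Mcm7 between 28.9 and 33.6 FPKM. Fragments of Cops6, which overlaps Mcm7, came to 32.0% of those of Mcm7. Tshr+/+ 3 was the lowest of its group in 8 of 8 licensing members and in 11 of 17 S phase members, against 42.0% of all genes tested; with equal totals these counts were 5 and 7 against 30.0% of all genes, and with quantile scaling 6 and 8 against 35.9%. Tshr-/- 3 was the lowest of its group in 0 of 17, so no S phase member was lowest in number 3 of both groups, against 24.2% of all genes tested.

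Pcna and Rrm2, of the replication fork and of nucleotide supply, were the 2 most abundant S phase members. Pcna, the clamp that holds DNA polymerases, stood at 100.4, 94.2 and 80.2 FPKM in Tshr+/+ and at 92.0, 76.8 and 82.3 FPKM in Tshr-/-. Tshr+/+ 1 and 2 were the highest and Tshr-/- 2 the lowest. Rrm2, the regulated subunit of ribonucleotide reductase, stood at 62.0, 54.4 and 67.0 FPKM in Tshr+/+ and at 55.7, 47.9 and 62.7 FPKM in Tshr-/-. Unlike the licensing members, Rrm2 was highest in number 3 of both groups. Rrm1, the large subunit, stood at 13.4, 13.1 and 13.6 FPKM in Tshr+/+ and at 14.5, 10.5 and 14.4 FPKM in Tshr-/-. Tyms, which makes thymidylate, stood at 5.27, 5.45 and 5.32 FPKM in Tshr+/+ and at 5.28, 4.35 and 5.26 FPKM in Tshr-/-. In both, only Tshr-/- 2 stood apart, on the low side. Gins2, a subunit of the active helicase, stood between 1.89 and 2.20 FPKM, and the overlapping Gse1 had 636% of its fragments. Over the 17 S phase members Tshr-/- 2 was the lowest of all 6 libraries in 10, against 18.7% of all genes tested; with equal totals the count was 14 against 28.9%, and with quantile scaling 13 against 18.2%.

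Genes of mitosis were highest in number 3 of each group, a pattern noticed after the values were seen. Ccnb1 and Ccnb2 encode the B-type cyclins that with Cdk1 start mitosis. Ccnb1 stood at 8.32, 7.82 and 15.9 FPKM in Tshr+/+ and at 11.7, 9.40 and 15.2 FPKM in Tshr-/-. Its 2 highest values were those of Tshr+/+ 3 and Tshr-/- 3, and the 2.04-fold range over the libraries was the widest of the group. Ccnb2 stood at 51.4, 53.9 and 60.9 FPKM in Tshr+/+ and at 48.4, 46.02 and 63.2 FPKM in Tshr-/-. Ccna2, the A-type cyclin of S phase and G2, stood at 21.1, 22.2 and 28.3 FPKM in Tshr+/+ and at 24.0, 20.5 and 29.1 FPKM in Tshr-/-. As in Ccnb1, the libraries numbered 3 gave the 2 highest values. Cdk1 stood at 17.8, 17.8 and 19.5 FPKM in Tshr+/+ and at 20.4, 16.8 and 20.01 FPKM in Tshr-/-. It was the only mitosis member in which number 3 was not the highest Tshr-/- library. Foxm1, a transcription factor of mitosis genes, stood at 13.9, 13.1 and 15.6 FPKM in Tshr+/+ and at 13.8, 12.0 and 18.3 FPKM in Tshr-/-.

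Kinases and motors of the spindle were also highest in number 3 within each group. Aurka, a kinase of the spindle poles, stood at 14.1, 14 and 20.7 FPKM in Tshr+/+ and at 19.8, 16.1 and 20.8 FPKM in Tshr-/-. Tshr+/+ 1 and 2 were the lowest and the groups overlapped through Tshr+/+ 3 (16.3 ± 3.85 against 18.9 ± 2.48 FPKM, SD, n = 3; log2 fold change 0.22 ± 0.18, SE; limma adjusted p = 0.9997). With single libraries left out it ran from 0.13 (without Tshr+/+ 2) to 0.40 (without Tshr+/+ 3). Tpx2, which activates the Aurka protein, stood at 15.5, 16.7 and 24.2 FPKM in Tshr+/+ and at 19.6, 19.5 and 22.5 FPKM in Tshr-/-. Plk1, another mitotic kinase, stood at 21.4, 21.7 and 33.7 FPKM in Tshr+/+ and at 24.3, 26.6 and 30.1 FPKM in Tshr-/-. For both the Tshr-/- values lay inside the wider Tshr+/+ range. Aurkb stood at 16.99, 17.9 and 26.5 FPKM in Tshr+/+ and at 18.7, 17.8 and 26.5 FPKM in Tshr-/-, and its partner Birc5 (survivin) at 18.3, 20.6 and 26.4 and at 21.2, 20.8 and 23.1 FPKM. Both encode parts of the chromosomal passenger complex, and both genes were highest in number 3 of each group. Of its other parts, Cdca8 was highest there too, but Incenp, with a mean of 53.8 FPKM, was lowest in number 3 of each group. The kinesin gene Kif11 stood at 25.8, 26.1 and 32.7 FPKM in Tshr+/+ and at 24.1, 25.3 and 35.6 FPKM in Tshr-/-. Kif20a, a kinesin of cell separation, stood at 6.99, 6.62 and 8.75 FPKM in Tshr+/+ and at 8.06, 7.08 and 10.8 FPKM in Tshr-/- (log2 fold change 0.18 ± 0.17, SE; limma adjusted p = 0.9997; 0.026 without Tshr-/- 3). Both motors were highest in Tshr-/- 3 and overlapped between the groups; fragments of Cdc23, which overlaps Kif20a, came to 51.1% of those of Kif20a.

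Genes of the chromosome, the kinetochore and the exit from mitosis completed the group. Top2a, which untangles DNA, stood at 35.5, 36.5 and 45.3 FPKM in Tshr+/+ and at 44.9, 34.8 and 50.3 FPKM in Tshr-/-. Mki67, the common marker of dividing cells, stood at 49.3, 52.8 and 50.6 FPKM in Tshr+/+ and at 59.6, 44.2 and 61.5 FPKM in Tshr-/-. Mki67 was nearly level in Tshr+/+ (50.9 ± 1.78 FPKM, SD, n = 3) and spread in Tshr-/- (55.1 ± 9.48 FPKM), with Tshr-/- 2 lowest of all 6, and it was the only member of the group without its highest Tshr+/+ value in number 3. Cdc20, which activates the complex that ends mitosis, stood at 35.0, 36.0 and 49.1 FPKM in Tshr+/+ and at 39.1, 42.3 and 46.7 FPKM in Tshr-/-. Fragments of Elovl1, which overlaps Cdc20, came to 105% of those of Cdc20. Cenpe, a kinetochore motor, stood at 4.77, 5.72 and 7.36 FPKM in Tshr+/+ and at 6.69, 5.74 and 8.07 FPKM in Tshr-/- (log2 fold change 0.18 ± 0.18, SE; limma adjusted p = 0.9997; 0.053 without Tshr+/+ 1 and 0.32 without Tshr+/+ 3). The groups overlapped, and Tshr+/+ 1 was lowest. The checkpoint genes Bub1 (5.78 to 8.97 FPKM) and Bub1b (12.8 to 19.3 FPKM) and the centromere genes Cenpa (17.4 to 21.3 FPKM) and Cenpf (2.25 to 4.01 FPKM) were likewise highest in number 3 of each group.

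Counted over the 20 mitosis members, number 3 was the highest library of Tshr+/+ in 19, of Tshr-/- in 19 and of both groups in 18, against 22% of all genes tested. With FPKM rescaled to equal totals or with quantile scaling the count was 20 of 20, while that of all genes was 45.4% with equal totals and 27.3% with quantile scaling. The median deviation of the mitosis members from their mean over 6 libraries, on the log2(FPKM + 1) scale, was -0.22, -0.14 and 0.22 in Tshr+/+ 1, 2 and 3 and -0.0007, -0.15 and 0.28 in Tshr-/- 1, 2 and 3. The S phase members had medians of 0.07, 0.07 and -0.09 in Tshr+/+ and of 0.05, -0.19 and 0.05 in Tshr-/-. Medians of all genes tested stayed within -0.007 and 0.009. On the deposited scale both libraries numbered 3 thus stood above the rest of their group for mitosis genes. For S phase genes on that scale Tshr+/+ 3 stood below its group and Tshr-/- 3 level with Tshr-/- 1. The S phase part depended on the scale. Tshr-/- 3 was the highest of its group in 6 of 17 S phase members as deposited, 17 with equal totals and 10 with quantile scaling. For all 10913 genes tested these counts were 3935, 7783 and 4452. No source used here says whether a number marks a shared day, litter or preparation.

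**Figure D2:**
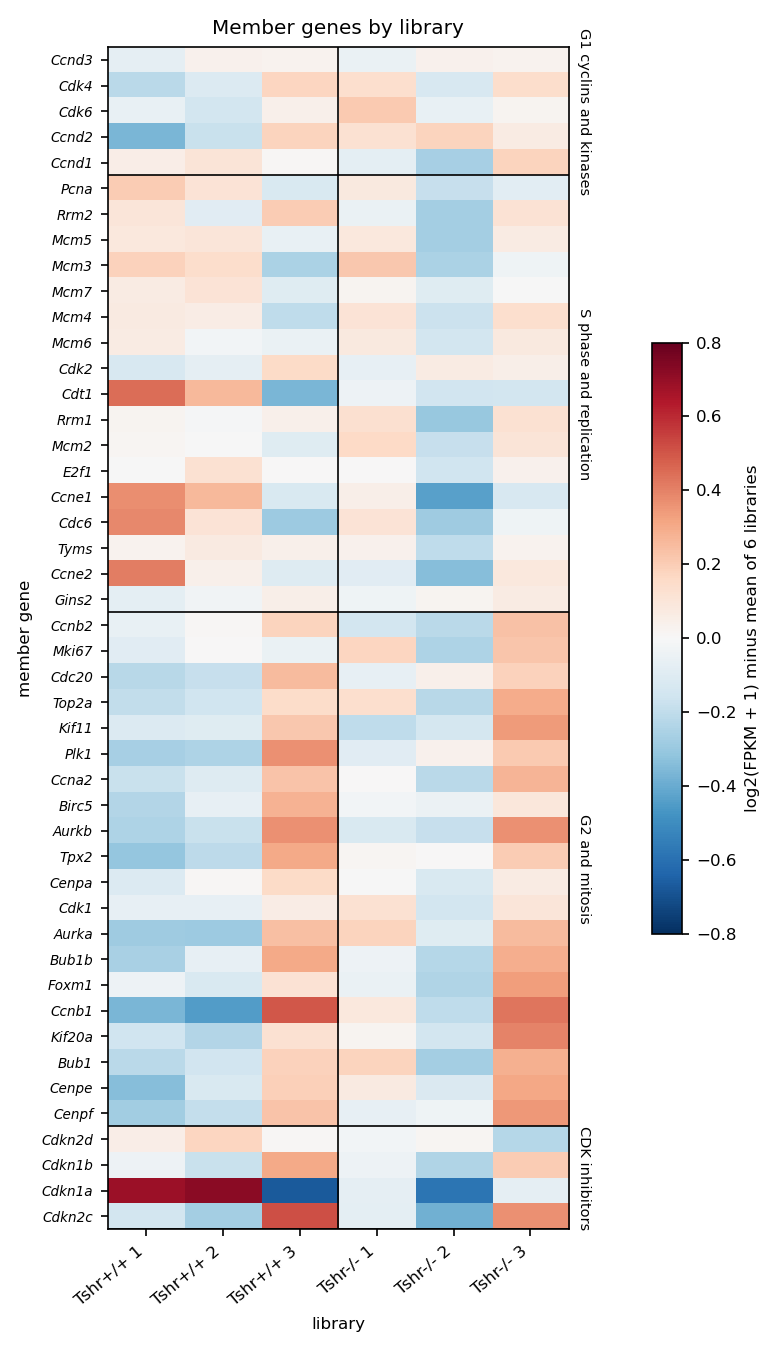
Each row is a member and each column a library; colour gives log2(FPKM + 1) minus the mean of the 6 libraries, red above and blue below. The mitosis block is red in both columns numbered 3, except for Mki67 in Tshr+/+ 3 (-0.055). The S phase block is mostly blue in Tshr-/- 2, and Cdkn1a is red in Tshr+/+ 1 and 2 only.

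The 4 CDK inhibitors ranged in mean level from 18.1 FPKM (Cdkn2c) to 127.9 FPKM (Cdkn2d), and each had a log2 fold change below 0. Cdkn2d (p19INK4d), which blocks Cdk4 and Cdk6, stood at 132, 144 and 128 FPKM in Tshr+/+ and at 126, 129 and 109 FPKM in Tshr-/-. It was the most abundant of all 46 members, with Tshr-/- 3 lowest and groups that overlapped (134.8 ± 8.15 against 121.1 ± 10.9 FPKM, SD, n = 3; log2 fold change -0.16 ± 0.12, SE; limma adjusted p = 0.9997; -0.081 without Tshr-/- 3). Cdkn1a (p21), the inhibitor induced by p53, stood at 57.3, 58.8 and 21.8 FPKM in Tshr+/+ and at 33.6, 23.2 and 33.6 FPKM in Tshr-/-. Tshr+/+ 1 and 2 were above all other libraries and Tshr+/+ 3 below all, a 2.70-fold range (45.9 ± 20.96 against 30.1 ± 5.99 FPKM, SD, n = 3). The log2 fold change was -0.48 ± 0.38 (SE; limma adjusted p = 0.9997). The value hangs on single libraries: leaving out Tshr+/+ 3 gave -0.94 (limma adjusted p = 0.189), leaving out Tshr+/+ 1 gave -0.26, Tshr+/+ 2 gave -0.25 and Tshr-/- 2 gave -0.31. Leaving out number 3 of both groups gave -1.03 (limma adjusted p = 0.125). Cdkn1b (p27) stood at 38.7, 35.1 and 49.5 FPKM in Tshr+/+ and at 38.7, 33.5 and 45.96 FPKM in Tshr-/-. Cdkn2c (p18INK4c) stood at 15.8, 14.4 and 25.6 FPKM in Tshr+/+ and at 16.6, 13.3 and 23.0 FPKM in Tshr-/-. Both were highest in number 3 of each group, the order seen in the mitosis genes. Summed, the 4 inhibitors stood at 244, 252.3 and 225 FPKM in Tshr+/+ and at 214, 199 and 211 FPKM in Tshr-/-. The sums did not overlap on this scale, but as a share of fragments they did (0.0609%, 0.0595% and 0.0621% in Tshr+/+, 0.0535%, 0.0452% and 0.0629% in Tshr-/-), with Tshr-/- 3 highest, and with equal totals Tshr-/- 3 was highest too. Each single inhibitor overlapped.

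Set against each other within a library, where scaling cancels, S phase and mitosis values differed in balance from library to library. The 17 S phase members summed to 439.6, 418.8 and 383.2 FPKM in Tshr+/+ and to 415.2, 347.3 and 405.3 FPKM in Tshr-/- (413.9 ± 28.5 against 389.2 ± 36.7, SD, n = 3). The 20 mitosis members summed to 394.8, 412.1 and 518.1 FPKM in Tshr+/+ and to 449.4, 404.0 and 533.9 FPKM in Tshr-/- (441.7 ± 66.8 against 462.4 ± 65.9). Both sums overlapped between the groups. Their ratio was 1.11, 1.016 and 0.740 in Tshr+/+ and 0.924, 0.859 and 0.759 in Tshr-/- (0.956 ± 0.194 against 0.847 ± 0.0829). The lowest ratio of each group was in number 3, and the means differed by -0.158 on the log2 scale, beside an SD of 0.310 within Tshr+/+ and 0.143 within Tshr-/-, and the groups overlapped. Without Tshr+/+ 3 that difference was -0.333, and without Tshr+/+ 1 it was -0.0374. A narrower pair, the 6 Mcm genes over the 2 B-type cyclins, gave 2.92, 2.81 and 1.94 in Tshr+/+ and 2.94, 2.57 and 2.17 in Tshr-/-, again lowest in number 3. The 2 lists of other genes of these phases gave 0.479, 0.444 and 0.429 in Tshr+/+ and 0.434, 0.419 and 0.451 in Tshr-/-. There number 3 was lowest in Tshr+/+ and highest in Tshr-/-. Cks2, the most abundant gene of that mitosis list, stood at 179, 185 and 173 FPKM in Tshr+/+ and at 202, 189 and 147 FPKM in Tshr-/-. The list summed to 733, 772 and 846 FPKM in Tshr+/+ and to 805, 749 and 804 FPKM in Tshr-/-. Of its 48 genes, 38 were highest in number 3 of both groups. The ratio was not taken without Cks2, so it cannot show whether the order of the members recurs in Tshr-/-.

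**Figure D3:**
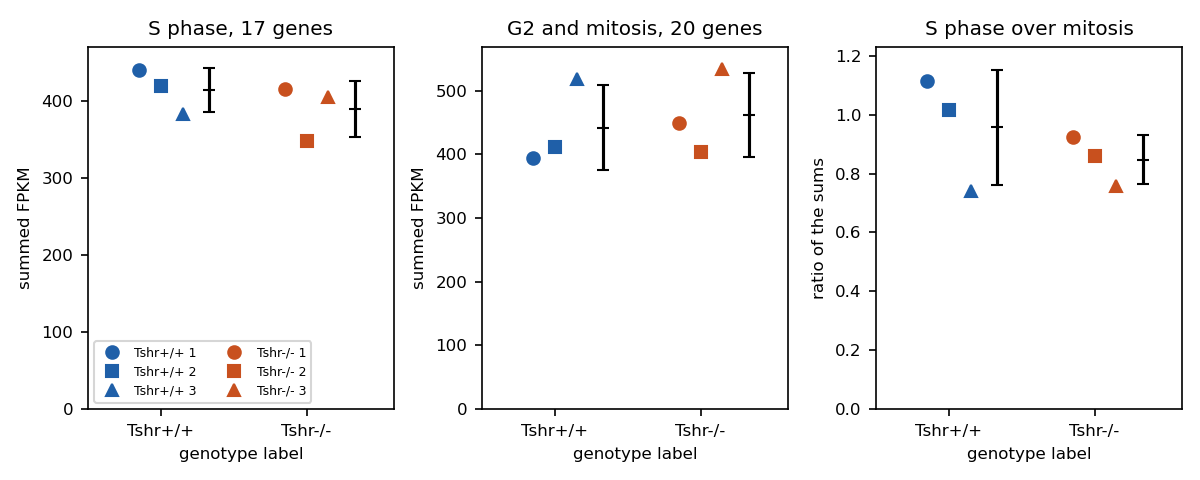
Summed FPKM of the 17 S phase members (left) and the 20 mitosis members (middle) and the ratio of the sums (right) in each library, on axes that start at 0; black bars give the mean and SD of 3 libraries. Triangles, the libraries numbered 3, are the highest of their group in the middle panel and the lowest in the right panel.

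As a share of all fragments, a reading of how much of the RNA came from the cycle genes, the 46 members took 0.475%, 0.470% and 0.569% in Tshr+/+ and 0.511%, 0.428% and 0.617% in Tshr-/-. The mitosis members took 0.186%, 0.190% and 0.264% in Tshr+/+ and 0.225%, 0.183% and 0.292% in Tshr-/-. The S phase members took 0.162%, 0.151% and 0.162% in Tshr+/+ and 0.161%, 0.129% and 0.178% in Tshr-/-. Wilson 95% intervals of these shares were no wider than 0.00362 percentage points to either side, for counting error only. Every share overlapped between the groups. By this measure number 3 was highest for mitosis in both groups, and S phase in Tshr+/+ 3 was level with Tshr+/+ 1.

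Some marker lists of other cells and stages also moved with the libraries numbered 3, and others did not. Highest in number 3 of both groups were 6 of 13 resident macrophage genes and 4 of 8 plasma cell genes. The same held for 1 of 12 T and NK cell genes and 1 of 11 genes of basophils, mast cells and eosinophils. Of 8 genes of CD11b selection and myeloid identity, 1 was highest and 5 were lowest there, against 22% and 24.2% of all genes tested. The 11 stem and progenitor genes, of which 4 passed the filter and Erg was the most abundant, summed to 26.9 to 37.3 FPKM in Tshr+/+ and 30.3 to 34.6 FPKM in Tshr-/-, highest in number 3 of each group. Of these genes, 4 of 11 (Kit, Erg, Meis1 and Mycn) were highest in number 3 of both groups, against 22% of all genes tested. Meis1 averaged 0.161 FPKM and Mycn 0.0549 FPKM, and neither passed the filter that the 22% rests on. Of these 4, Kit encodes the receptor of early progenitors. It stood at 4.77, 5.78 and 5.84 FPKM in Tshr+/+ and at 5.03, 4.42 and 6.34 FPKM in Tshr-/-. Within their groups Flt3 and Cd27 were lowest in Tshr+/+ 3, and Cd34 and Hlf in Tshr-/- 3. Cd34 averaged 0.62 FPKM. The 12 genes of B cell precursors, 2 of which passed the filter and of which Cd79b was the most abundant, summed to 5.99 to 10.8 and 5.11 to 11.0 FPKM, also highest in number 3; Vpreb2 and Rag2 were at 0 in all libraries but Tshr-/- 3. Of the 11 monocyte genes, 7 were highest in number 3 of both groups, among them the chemokine receptor gene Ccr2, named after its values were seen, at 11.4, 11.6 and 32.5 FPKM in Tshr+/+ and 18.4, 12.6 and 29.9 FPKM in Tshr-/-. Their share of fragments was highest in number 3 of each group (0.360%, 0.347% and 0.369%, and 0.455%, 0.280% and 0.477%), while their FPKM sum, led by Cd14, was lowest in Tshr+/+ 3.

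Later and earlier stages of the neutrophil line depended on the scale. The 10 genes of the secondary granule stage summed to 42892 to 53376 FPKM in Tshr+/+ and 33868 to 51195 FPKM in Tshr-/-, lowest in number 3 of each group. As a share of fragments Tshr-/- 3 was still lowest (5.96%), but Tshr+/+ 1 (7.14%) was below Tshr+/+ 3 (7.18%). The 13 genes of mature neutrophils summed to 82173 to 97476 and 67607 to 104340 FPKM, lowest in number 3 of each group, whereas by share of fragments Tshr+/+ 3 was the highest of its group (6.08%) and Tshr-/- 3 the lowest (5.15%). The 14 genes listed for the primary granule stage summed to 4041, 3880 and 3973 FPKM in Tshr+/+ and to 4566, 3762 and 4087 FPKM in Tshr-/-. That sum was not highest in number 3. Elane, its most abundant gene, stood at 972, 909 and 1140 FPKM in Tshr+/+ and at 1256, 967 and 1191 FPKM in Tshr-/-. Srgn stood at 807, 723 and 423 and at 673, 573 and 435 FPKM, and Hdc at 376, 337 and 168 and at 294, 262 and 195 FPKM. The sum was not taken without these 2 genes, and bulk RNA does not show which cells hold the RNA of the list. Of the 14 genes, 4 were highest there in both groups (Prtn3, Ctsg, Gfi1 and Prss57), against 22% of all genes tested. Another 3 were lowest there in both groups (Fcnb, Srgn and Hdc), against 24.2% of all genes tested. These genes were named after their values were seen. With equal totals the sum was highest in number 3 of each group, as were 45.4% of all genes tested on that scale. The 15 erythroid genes, led by Hba-a1, summed to 70.6 to 153.6 and 111.7 to 177.5 FPKM, lowest in number 3 of each group, although 7 of the 15 were highest there and by share of fragments Tshr-/- 2 was the lowest of its group. The part of these cells in the values of the cycle genes was not tested.

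Other genes of the same pathways, from lists that are not members, gave 0 calls in each of 3 lists. Of 43 tested genes of other S phase functions, 15 had a log2 fold change above 0 and 28 below (median -0.04). Rfc1, the large subunit of the clamp loader, stood at 9.23, 10.4 and 11.0 FPKM in Tshr+/+ and at 11.9, 11.5 and 11.8 FPKM in Tshr-/- (log2 fold change 0.19 ± 0.10, SE; limma adjusted p = 0.9997). Cdc45, a helicase cofactor, stood at 11.6, 10.3 and 11.9 FPKM in Tshr+/+ and at 13.5, 12.0 and 13.4 FPKM in Tshr-/- (0.19 ± 0.11, SE; limma adjusted p = 0.9997). In both all Tshr-/- values lay above all Tshr+/+ values. Groups also lay apart, with Tshr-/- lower, for Mcm10, Rfc3, Rfc5 and Lig1, so that 6 of 45 genes of the list had groups without overlap in mixed directions, against 6.77% of all genes tested. The most abundant gene of the list, Uhrf1, which keeps DNA methylation through replication, averaged 25.7 FPKM.

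Of 48 other mitosis genes, 33 had a log2 fold change above 0 and 15 below (median 0.03). Groups without overlap were found for 0 of them, against 6.77% of all genes tested. The log2 fold change was 0.16 ± 0.12 (SE) for Ckap2l, a spindle protein gene, and -0.17 ± 0.15 (SE) for Spc24, of the kinetochore, each at a limma adjusted p of 0.9997. Without Tshr-/- 2 that of Spc24 was -0.011 and that of Ckap2l 0.26. Number 3 was highest in both groups in 38 of these 48 genes, against 22% of all genes tested. Among the exceptions was Cks2, a small partner of CDKs and the most abundant of the list at 179 FPKM, which was lowest in number 3 of both groups. Of 28 tested regulators, 11 were above 0 and 17 below (median -0.05). Fbxo5, which restrains the complex that ends mitosis, stood at 19.7, 16.8 and 17.8 FPKM in Tshr+/+ and at 16.4, 12.0 and 15.9 FPKM in Tshr-/-. All Tshr-/- values lay below all Tshr+/+ values (log2 fold change -0.28 ± 0.14, SE, limma adjusted p = 0.9997, and -0.15 without Tshr-/- 2). It was the only regulator without overlap, 1 of 32, against 6.77% of all genes tested. Pkmyt1, a kinase that holds Cdk1 inactive, had a log2 fold change of -0.18 ± 0.11 (SE; limma adjusted p = 0.9997; -0.11 without Tshr-/- 1), and Btg1, an antiproliferative gene and the most abundant regulator, averaged 319.6 FPKM.

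**Figure D4:**
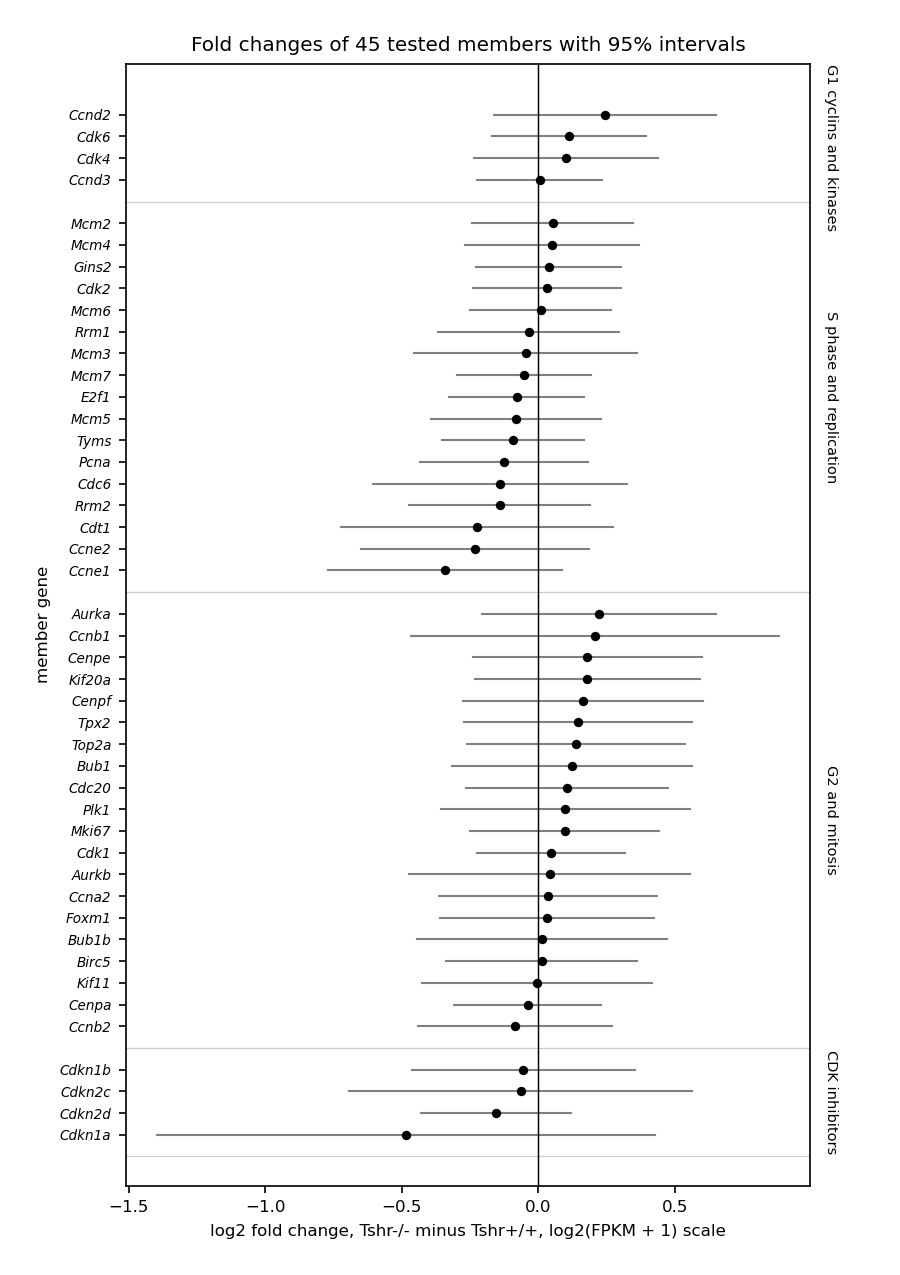
Log2 fold change (Tshr-/- minus Tshr+/+, log2(FPKM + 1) scale) of the 45 tested members by role; points are estimates and lines 95% intervals of the limma fit. Every line crosses 0, and the widest is that of Cdkn1a (-1.40 to 0.43). In G2 and mitosis 17 of 20 points lie right of 0, and in S phase 12 of 17 lie left of it. Members share the same libraries, and these counts move when single libraries are left out.

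Counting error differed by role. The fewest fragments in any library were 8 in G1 (Ccnd1), 121 in S phase (Gins2), 353 in mitosis (Bub1) and 500 among the inhibitors (Cdkn2c), all in Tshr-/- 2. Counting errors there were 35.4%, 9.09%, 5.32% and 4.47% of the value. The mitosis median rests on single libraries: it was 0.01 without Tshr-/- 3 and 0.24 without Tshr+/+ 3.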

How the data were processed

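FPKM per gene of 6 libraries were used as the authors deposited them, 3 libraries per genotype label. Per the submitters' processing notes the builds were GRCm38 and mm10. Aligner, counter and strand setting were not given in the sources used here. Columns headed HO were read as the Tshr-/- samples of the same number. Multiplying the deposited FPKM by gene length gave whole fragments for 100% of values (tolerance 0.01); 1 fragment of a 1 kb gene was worth 0.0496 to 0.0713 FPKM.

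The 10913 genes that reached 1 FPKM in 3 or more libraries entered a limma fit (version 3.58.1, R 4.3.3) on log2 of the deposited FPKM plus a pseudocount of 1 (variance trend, two-sided test, Benjamini-Hochberg adjustment, threshold 0.05), which understates fold changes of low genes. The p-values measure the spread between these libraries. The members, their roles and all lists were chosen with earlier results of these data known. Fold changes are printed for the 3 members of each role with the smallest p (2 where a role has at most 5) and 2 genes of each other list; sums and ratios have no test. The script was tested on simulated data. Positions of 45 of 46 members equalled those of GENCODE M21.

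Deviations of same-numbered samples from their group means correlated across genes (r = 0.24, 0.26 and 0.47 for numbers 1, 2 and 3). Yet Tshr-/- 1 correlated best with Tshr+/+ 2 (0.34). Deviations from a mean of 3 are not independent, so these values cannot show that the samples were paired. The labels do not state a pairing. The main fit was therefore unpaired, and the replicate block, which pairs by number, was run as an alternative. Alternatives were a pseudocount of 0.1, other filters and scalings, robust moderation, array weights, the replicate block, voom on fragments and libraries left out. Added after seeing the data were fits without either library numbered 3, the ratio without Tshr-/- 1 and 2, and the scaling of counts by library number.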

Additional observations from a re-analysis of the deposited data

How the results depend on the processing

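Members called stayed at 0 in all 17 alternatives. Over all genes, 0 were called with all 6 libraries, 24 with array weights (weights of 0.247 to 3.82) and 24 without both libraries numbered 3, with 3 genes in common, and 0 to 2 with single libraries left out (2 without Tshr-/- 3). The paired fit with the replicate block also gave 0 genes and 0 members and changed no call. The S phase median ran from -0.005 to -0.14, the mitosis median from 0.01 to 0.32, and the log2 difference of the S phase to mitosis ratio from -0.037 to -0.33, each on 1 side of 0. Of 269 combinations of 16 single genes with alternatives, 268 kept the direction and the side of the threshold. These genes were chosen by their small p and the alternatives reuse the same libraries, so this count was largely fixed beforehand. Sizes moved more, for Cdkn1a from -0.25 without Tshr+/+ 2 to -1.03 without both libraries numbered 3. Spc24 turned to 0.0249 without both libraries labelled Tshr-/- 1 and 2. That alternative leaves 1 Tshr-/- library assumed to vary like the others, and the cause was not tested. Equal totals shifted the median of all genes by 0.045. Array weights gave Cdkn1a a log2 fold change of -0.76 (limma adjusted p = 0.108).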
